A study of Mus musculus with 10 samples.

Results

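Late mature oligodendrocyte genes are described here in the spinal cord of young mice. The 9 genes, Klk6, Anln, Apod, Trf, Ppp1r14a, Aspa, Car2, Qdpr and Ptgds, were chosen by symbol as markers of this cell state, from 26301 genes counted. Klk6 and Anln were taken in because their counts at the later age had not dropped alongside those of other myelin genes, so their age differences are given as a description with no test. Whole spinal cord RNA of C57BL/6 mice was sequenced from 2 male and 2 female libraries at 4 weeks of age and 3 male and 3 female libraries at 8 weeks. The labels give no transgene, deletion or treatment for any group. They do not say whether each library came from a separate animal, so each p-value reflects the scatter among these libraries alone, which may be technical.

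Oligodendrocytes wrap axons of the central nervous system in myelin. After a precursor leaves the cell cycle, it passes through a phase of heavy synthesis of structural myelin proteins such as Mbp, and then into a mature state in which myelin is maintained. Genes for enzymes, carriers and cytoskeletal proteins of the finished cell mark that later state, and it is prominent in spinal cord white matter. Several of the 9 genes are also made elsewhere: Ptgds and Apod in the meninges, Car2 in osteoclasts and red cells, and Anln in dividing cells.

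Of the 7 members open to an age test, Qdpr, Car2 and Ptgds rose between 4 and 8 weeks, and none fell. RefSeq (GRCm38.p6) promoter windows, from 250 bases before to 50 bases after each gene's start, were matched for 7 of the 9 genes; no window was matched for Trf and Car2. The windows of Qdpr (chr5:45450180-45450479, minus strand) and Ptgds (chr2:25469700-25469999, minus strand) are printed 5′ to 3′ because they belong to the 2 matched members that rose. Capitals mark a GC box (GGGCGG or, on the other strand, CCGCCC) or a SOX core (ACAAAG or CTTTGT), motifs that do not overlap each other.
Qdpr: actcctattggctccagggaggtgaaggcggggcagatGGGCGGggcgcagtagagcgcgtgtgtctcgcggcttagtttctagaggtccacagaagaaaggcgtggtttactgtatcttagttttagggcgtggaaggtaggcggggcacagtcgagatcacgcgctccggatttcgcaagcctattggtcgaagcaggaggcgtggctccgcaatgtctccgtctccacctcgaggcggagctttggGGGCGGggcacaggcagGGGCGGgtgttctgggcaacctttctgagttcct
Ptgds: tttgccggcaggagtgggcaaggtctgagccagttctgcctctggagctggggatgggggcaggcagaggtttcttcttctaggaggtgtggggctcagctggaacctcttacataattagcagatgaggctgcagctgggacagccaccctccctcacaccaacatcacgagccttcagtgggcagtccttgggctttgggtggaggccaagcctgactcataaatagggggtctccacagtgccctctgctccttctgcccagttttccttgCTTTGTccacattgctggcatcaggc
The Qdpr window holds 3 GC boxes, 23 CG pairs and 60.7% G and C bases. The Ptgds window holds no GC box, 1 SOX core, 2 CG pairs and 57.7% G and C bases. So these 2 windows share neither motif. A GC box occurs in 35.7% and a SOX core in 18.7% of all 32851 windows of this length, and a match is a description of the letters only.

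Library totals ran from 8453559 to 11594610 counts. Levels are given as CPM (counts scaled to a common library size) after TMM scaling, which also corrects for library composition. The 9 members had between 687 and 24020 counts in a library, and all 9 passed the filter on low counts that left 15540 genes for testing. Markers of the labelled tissue were abundant: 10 structural myelin genes summed to 61137 to 64919 CPM at 4 weeks and 38337 to 45845 CPM at 8 weeks. Transcripts of other tissues differed with age or between single libraries. The summed level of 12 skeletal muscle markers, led by Acta1, was 575 to 1960 CPM at 4 weeks and 48.7 to 156 CPM at 8 weeks. The 6 fat markers, led by Fabp4, summed to 31.8 to 276 CPM and then 2.81 to 44.4 CPM. Lung markers, led by Sftpc, reached 776 CPM in male 8-week library 2 and 88.1 CPM in male 8-week library 3, and at most 5.77 CPM in any other. Adrenal markers, led by Star, reached 109 and 82.7 CPM in the male 4-week libraries and at most 10.04 CPM in any other. The part of these tissues in the results was not tested beyond the values given here and in the account of processing. In whole cord, fewer cells of a type and less RNA per cell cannot be told apart.

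The members spanned a wide range of levels. Per kilobase of the longest coding transcript, the mean level was 853 CPM for Ptgds and 839 CPM for Trf, then 527 CPM for Apod, 422 CPM for Qdpr and 280.2 CPM for Car2. The lower end held Klk6 at 137 CPM per kilobase, Ppp1r14a at 85.5, Aspa at 66.6 and Anln at 44.5. At 4 weeks Trf, at 886 ± 61.2 CPM per kilobase (SD, n = 4), lay above Ptgds, at 647 ± 78.7. At 8 weeks the 2 genes overlapped, at 809 ± 77.6 for Trf and 989 ± 292 for Ptgds (SD, n = 6). The highest Ptgds value, 1545, was that of male 8-week library 1. The order depended on the division by length. In CPM alone Trf ranked 1, Apod 2 and Ptgds 3, and Anln ranked 6, Klk6 7 and Ppp1r14a 9.

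Qdpr encodes dihydropteridine reductase, which regenerates tetrahydrobiopterin, the cofactor of the aromatic amino acid hydroxylases. Its level at 4 weeks was 542 and 413 CPM in the male libraries and 466 and 387 CPM in the female libraries. At 8 weeks it was 761, 688 and 639 CPM in males and 619, 692 and 620.4 CPM in females. Every 8-week library lay above every 4-week library. Its mean of 452 ± 68.3 CPM at 4 weeks (SD, n = 4) became 669.7 ± 54.9 CPM at 8 weeks (SD, n = 6). The fitted log2 fold change of 0.57 (SE 0.08) had an edgeR adjusted p of 0.000717 and was positive in both sexes.

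Car2 encodes carbonic anhydrase II, a cytosolic enzyme that interconverts carbon dioxide and bicarbonate. At 4 weeks its level was 499 and 421 CPM in males and 419.6 and 385 CPM in females. At 8 weeks it was 603, 548 and 523 CPM in males and 520.3, 580.3 and 512 CPM in females. Here too the 2 ages did not overlap. The mean went from 431 ± 48.2 to 548 ± 36.9 CPM (SD, n = 4 and 6), a log2 fold change of 0.35 (SE 0.07, edgeR adjusted p = 0.00551).

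Ptgds encodes lipocalin-type prostaglandin D synthase, an abundant secreted protein of the brain and its coverings. At 4 weeks its level was 666 and 586 CPM in males and 589 and 493 CPM in females. At 8 weeks it was 1392, 812 and 805 CPM in males and 692, 952 and 697 CPM in females. The 2 ages again did not overlap, but male 8-week library 1 stood well above the other 5. The mean went from 583 ± 70.9 to 891 ± 263 CPM (SD, n = 4 and 6), a log2 fold change of 0.60 (SE 0.15, edgeR adjusted p = 0.0237). Without male 8-week library 1 the log2 fold change was 0.46, with an edgeR adjusted p of 0.0127. The call ended on leaving out the female library numbered 2 at 4 weeks (edgeR adjusted p = 0.0662) or at 8 weeks (0.0583), or both male 4-week libraries (0.254). It also ended with DESeq2 (adjusted p = 0.0512) and with a covariate for skeletal muscle markers (edgeR adjusted p = 0.0813). Meningeal fibroblast markers, which include Col1a2, summed to 699 to 1445 CPM at 4 weeks and 272 to 529 CPM at 8 weeks, with male 8-week library 1 the highest at 8 weeks at 529 CPM. Of these 7 markers 3 fell and 4 did not pass. Of 3 choroid plexus markers, Ttr and Folr1 stayed under 1 CPM in every library. The third, Kl, was at 4.90 to 6.45 CPM at 4 weeks and 5.12 to 6.56 CPM at 8 weeks. The part of the meninges in the Ptgds level was not tested.

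**Figure D1:**
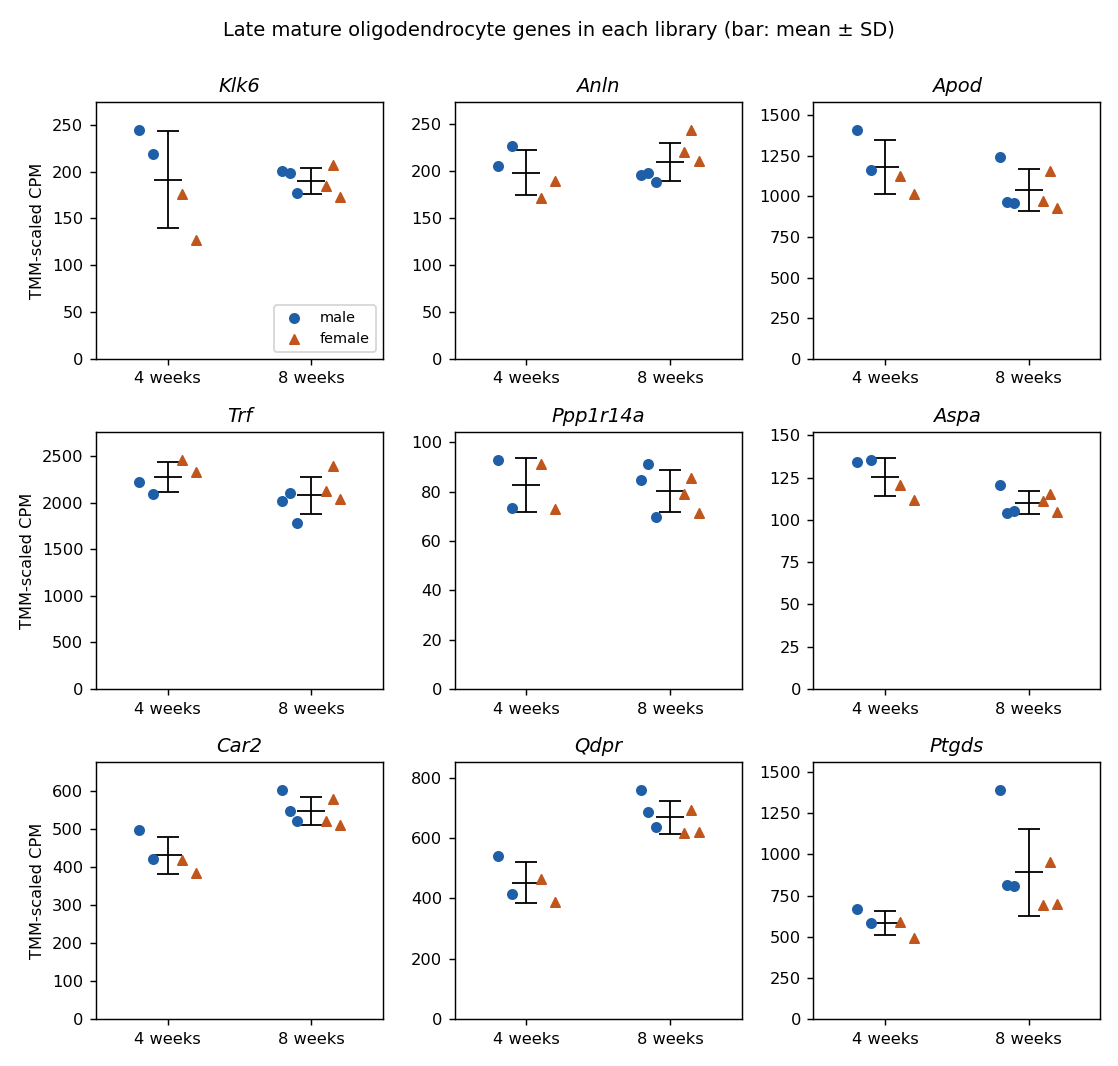
TMM-scaled CPM of the 9 members (vertical axes) by sex and age, with 1 point per library and bars for the mean and SD of each age. Qdpr, Car2 and Ptgds are higher in all 6 libraries at 8 weeks than in any at 4 weeks, and male 8-week library 1 is the high Ptgds point at 1392 CPM.

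Across the 7 tested members, 3 were called higher and 0 lower at an edgeR adjusted p under 0.05. Of all 15540 genes, 1.61% were called higher and 5.01% lower. The members were chosen with earlier results of these data known, so this is a description and not a test of the set. By an unadjusted p under 0.05, 2 members were lower, Aspa and Trf, beside 12.0% of all genes, while DESeq2 and limma-voom called 0 lower, and 2 and 3 higher. All 6 8-week libraries lay above all 4 at 4 weeks for the 3 called members, a pattern that 2.89% of all genes had. The median log2 fold change was -0.04 over these 7 members and 0.01 over all genes tested.

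The other 4 tested members did not pass. Aspa encodes aspartoacylase, which releases acetate from N-acetylaspartate in oligodendrocytes. It was 134 and 136 CPM in males and 121 and 112 CPM in females at 4 weeks. At 8 weeks it was 120.5, 104 and 105 CPM in males and 111, 115 and 105 CPM in females. The ages overlapped, and 4 of 6 8-week libraries lay below all at 4 weeks (log2 fold change -0.18, SE 0.06, edgeR adjusted p = 0.106). Apod, a lipocalin that carries small lipophilic molecules, had a mean of 1178 ± 166 CPM at 4 weeks and 1037 ± 129 CPM at 8 weeks (SD, n = 4 and 6). Its log2 fold change was -0.18 (SE 0.09, edgeR adjusted p = 0.285). Trf, transferrin, the iron carrier that oligodendrocytes make in the cord, had means of 2277 ± 157 and 2079 ± 200 CPM (SD, n = 4 and 6), with a log2 fold change of -0.13 (SE 0.06, edgeR adjusted p = 0.235). Ppp1r14a, which inhibits myosin phosphatase, had means of 82.6 ± 10.9 and 80.2 ± 8.38 CPM (SD, n = 4 and 6), with a log2 fold change of -0.04 (SE 0.09, edgeR adjusted p = 0.851). Smooth muscle, which also makes Ppp1r14a, left little signal: its 4 markers, led by Acta2, summed to 8.10 to 16.5 CPM at 4 weeks and 7.22 to 11.9 CPM at 8 weeks, and none of the 3 tested passed.

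Klk6 encodes a secreted serine protease of the kallikrein family that is abundant in spinal cord oligodendrocytes. It was 245 and 219 CPM in males and 176 and 127 CPM in females at 4 weeks. At 8 weeks it was 201, 199 and 177 CPM in males and 185, 207 and 173 CPM in females. The male 4-week libraries were the highest of all 10 and female 4-week library 2 was the lowest. The mean was 192 ± 51.7 CPM at 4 weeks and 190.1 ± 13.9 CPM at 8 weeks (SD, n = 4 and 6), a log2 fold change of 0.01 (SE 0.12). That value moved with the libraries and setting used. It was -0.13 without female 4-week library 2, 0.13 without male 8-week libraries 2 and 3, 0.32 without both male 4-week libraries and 0.52 with a covariate for skeletal muscle markers.

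Anln encodes anillin, an actin- and septin-binding scaffold of the cytokinetic ring that also occurs with septins in mature myelin. It was 205 and 227 CPM in males and 171 and 189 CPM in females at 4 weeks. At 8 weeks it was 195, 198 and 188 CPM in males and 220.3, 244 and 211 CPM in females. The ages overlapped, with 1 of 6 8-week libraries above all at 4 weeks. The mean was 198 ± 23.8 CPM at 4 weeks and 209 ± 20.3 CPM at 8 weeks (SD, n = 4 and 6), a log2 fold change of 0.08 (SE 0.09). Leaving out 1 library gave values from -0.00072 (female 4-week library 1) to 0.16 (male 4-week library 2). It was 0.32 without both male 4-week libraries and 0.19 with the muscle covariate. Markers of dividing cells, which include Mki67, summed to 29.4 to 68.6 CPM at 4 weeks and 10.8 to 21.1 CPM at 8 weeks, and all 4 that were tested fell. Ccnb1 was under 1 CPM in every library. The part of dividing cells in the Anln level was not tested. Anln overlaps 9530077C05Rik (9.36 to 14.0 CPM), and since the strand setting of the counting is not known, reads from overlapping genes cannot be told apart.

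**Figure D2:**
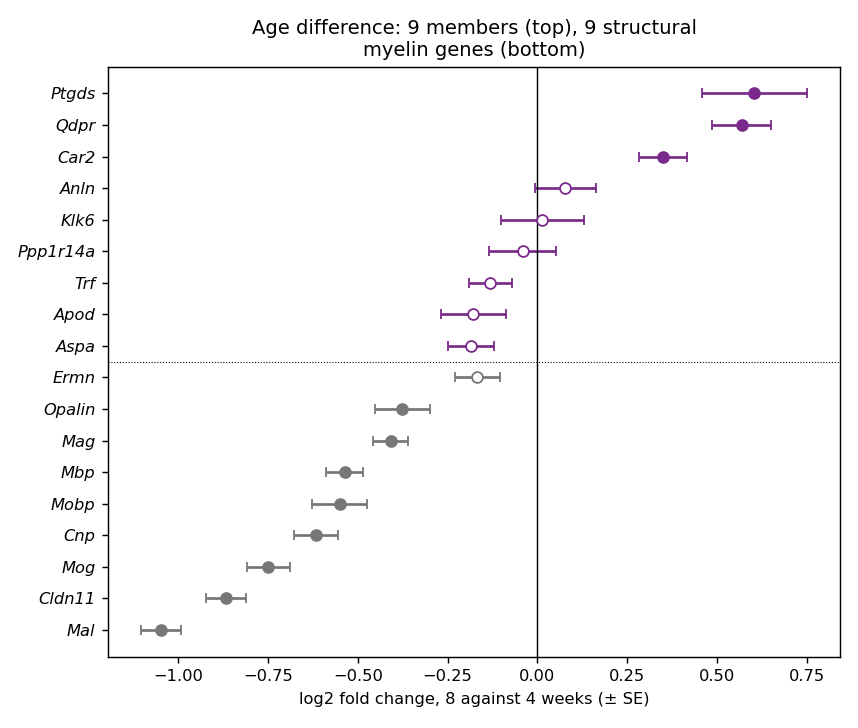
Log2 fold change at 8 against 4 weeks with SE (horizontal axis) for the 9 members and 9 of the 10 genes of the structural myelin list; filled points passed at an edgeR adjusted p under 0.05, and open points did not or, for Klk6 and Anln, carry no test. Qdpr, Ptgds and Car2 lie to the right at 0.57, 0.60 and 0.35, Klk6 and Anln lie near 0 at 0.01 and 0.08, and the structural genes lie to the left, with a median of -0.58 over the whole list.

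Structural myelin genes fell over the same interval. Of 10 tested, 9 fell and Ermn did not pass, with a median log2 fold change of -0.58 beside 0.01 over all genes. Mal, a membrane proteolipid, fell by 1.05 (SE 0.05) and Cldn11, the tight junction claudin of myelin, by 0.87 (SE 0.06) on the log2 scale. Set against the summed counts of these genes, each member took a larger share at 8 weeks. Per 1000 structural myelin counts, Qdpr went from 7.09 ± 0.99 to 16.3 ± 1.56, Klk6 from 2.996 ± 0.76 to 4.62 ± 0.27 and Trf from 35.8 ± 2.90 to 50.4 ± 2.02 (SD, n = 4 and 6). All 9 members were higher in every 8-week library on this scale, and so were 72.6% of all genes tested, so the pattern is not a result about the members.

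Of 27 other genes of mature oligodendrocytes tested, 1 rose, 5 fell and 21 did not pass by edgeR, with a median log2 fold change of -0.09. DESeq2 called 1 higher and 7 lower. The actin-severing protein gene Gsn fell by 1.08 (SE 0.06) and the tetraspanin gene Tspan2 by 0.81 (SE 0.06) on the log2 scale. The gene that rose, Plekhb1, was named after its value was seen (log2 fold change 0.27, edgeR adjusted p = 0.0226). Its call ended on leaving out, singly, number 2 of the female 4-week libraries or numbers 1 or 2 of the female 8-week libraries, with edgeR adjusted p from 0.0511 to 0.130 over these and the other settings that ended it. Oligodendrocyte precursor markers, which include Gpr17, summed to 286 to 345 CPM at 4 weeks and 218 to 246 CPM at 8 weeks.

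Lists of pathway genes around the members were counted beside 6.62% of all genes called in either direction for age. Of 9 other tetrahydrobiopterin genes tested, 1 fell and 8 did not pass (median -0.11). The one that fell was Ddc, the aromatic amino acid decarboxylase, at -0.40 (SE 0.08, edgeR adjusted p = 0.00707). Pts and Gch1, which make the cofactor, had log2 fold changes of -0.10 and -0.48, with edgeR adjusted p of 0.533 and 0.1502. Of 16 other genes of carbonic anhydrases and acid-base transport, 3 fell and 13 did not pass (median -0.01). Those were Car1 (-2.82, SE 0.28), an isozyme of red cells, Car3 (-2.55, SE 0.31), an isozyme of muscle and fat, and Slc16a1 (-0.24, SE 0.06), a lactate and pyruvate transporter. Erythroid markers, which include Hba-a1, summed to 462 to 833 CPM at 4 weeks and 348 to 410 CPM at 8 weeks, and osteoclast markers, led by Ctsk, to 46.7 to 97.9 and 12.6 to 19.8 CPM. Of 5 erythroid markers tested 3 fell, and of 2 osteoclast markers 2 did. Their part in the Car2, Car1 and Car3 levels was not tested.

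Of 11 other genes of prostaglandin D2 synthesis and signalling, 1 fell and 10 did not pass (median 0.01). That gene was Pla2g4a, a phospholipase that frees arachidonic acid (-0.45, SE 0.11, edgeR adjusted p = 0.0210). Its call ended on leaving out library 1 of either sex at 4 weeks, and with the replicate block. It also ended without both male 4-week libraries or without male 8-week libraries 2 and 3. Hpgds, the haematopoietic enzyme for the same reaction as Ptgds, had a log2 fold change of -0.12 (edgeR adjusted p = 0.711) at 6.08 ± 0.83 CPM at 4 weeks and 5.61 ± 0.87 CPM at 8 weeks (SD, n = 4 and 6).

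The partners of the members that did not pass were counted likewise. Of 15 lipocalins, apolipoproteins and their receptors tested, 1 rose, 3 fell and 11 did not pass by edgeR (median -0.02). DESeq2 called 3 higher and 2 lower. Apoc1 fell by 1.44 (SE 0.22) on the log2 scale, while Abca8a, a lipid transporter named after its value was seen, rose by 0.72 (SE 0.19). Of 14 iron handling genes 1 fell, Aco1, a cytosolic aconitase that doubles as an iron sensor (-0.24, SE 0.06), and 13 did not pass (median -0.10). Of 11 genes of N-acetylaspartate and acetate use 1 fell by edgeR, Acss2, which activates acetate (-0.40, SE 0.05), and 10 did not pass (median -0.09). DESeq2 and limma-voom each also called 1 gene of this list higher. Nat8l, which makes N-acetylaspartate, had a log2 fold change of 0.17 (SE 0.05, edgeR adjusted p = 0.0574). Of 15 genes of the myosin phosphatase, its inhibitors and kinases, Prkca rose (0.32, SE 0.08), Ilk fell (-0.22, SE 0.06) and 13 did not pass (median -0.10).

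Of 9 kallikreins, receptors and inhibitors tested, 0 were called by edgeR in either direction (median 0.15), with 2 higher and 1 lower at an unadjusted p under 0.05 and 1 higher by DESeq2 and by limma-voom. App, the amyloid precursor gene, whose longer isoforms carry a protease inhibitor domain, had the lowest p (log2 fold change 0.15, SE 0.04, edgeR adjusted p = 0.0585). Of 17 septins and cytokinesis partners of anillin, 1 rose, 4 fell and 12 did not pass by edgeR (median -0.09). DESeq2 called 1 higher and 5 lower. Ect2, a cytokinesis regulator, fell by 0.94 (SE 0.20) and Kif23, a mitotic kinesin at 2.44 ± 1.18 CPM at 4 weeks and 0.87 ± 0.49 CPM at 8 weeks (SD, n = 4 and 6), by 1.46 (SE 0.40). Septin2 fell by 0.25 (SE 0.07), and Septin6, named after its value was seen, rose by 0.17 (SE 0.05). The Ect2 call ended without female 4-week library 2, both male 4-week libraries or male 8-week libraries 2 and 3, and with the replicate block or the muscle covariate, with edgeR adjusted p from 0.0572 to 0.753. The calls of Septin2, Kif23, Septin6, Aco1, Slc16a1, Abca8a and Ilk each ended on leaving out any of 7 to 9 of the 10 libraries singly, and that of Prkca on leaving out library 1 of either sex at 4 weeks or library 2 of either sex at 8 weeks. With the skeletal muscle covariate the calls of Acss2, Car1, Ddc, Apoc1, Pla2g4a, Prkca and Plekhb1 ended too. So did those of Septin2, Septin6, Aco1, Abca8a and Ilk, and that of Car3, which is itself among the markers the covariate is built from. Kif23 and Slc16a1 lost their calls there with a change of sign. The Ddc and Prkca calls also ended without both male 4-week libraries or without male 8-week libraries 2 and 3.

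The age difference was also taken within each sex. Among the 7 tested members, Qdpr was called higher in males (0.54, SE 0.12, edgeR adjusted p = 0.0297), where 0.837% of all genes were called higher and 2.39% lower. In females Qdpr (0.60, SE 0.12, edgeR adjusted p = 0.0323) and Car2 (0.42, SE 0.09, edgeR adjusted p = 0.0492) were called higher, beside 0.238% of all genes called higher and 1.22% called lower. No tested member was called lower in either sex by edgeR, DESeq2 or limma-voom on all 10 libraries, with 2 lower in males and 0 in females at an unadjusted p under 0.05, which 9.23% and 7.65% of all genes reached. Without male 8-week library 1, Aspa was called lower in males (-0.36, edgeR adjusted p = 0.0470). Car2 in males had 0.28 (SE 0.09, edgeR adjusted p = 0.140), and Ptgds had 0.68 (SE 0.22, edgeR adjusted p = 0.131) in males and 0.53 (SE 0.22, edgeR adjusted p = 0.338) in females. In males Car2 was called with the muscle covariate (0.70, edgeR adjusted p = 0.0301) and Ptgds with no filter on low counts (0.69, edgeR adjusted p = 0.0274). The male Qdpr call ended on leaving out, singly, number 2 of the male 4-week libraries, numbers 1 or 2 of the male 8-week libraries or number 1 of the female 8-week libraries. The female calls of Qdpr and Car2 ended without any 1 of the 5 female libraries or male 8-week library 2, and that of Car2 also without male 8-week library 3.

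**Figure D3:**
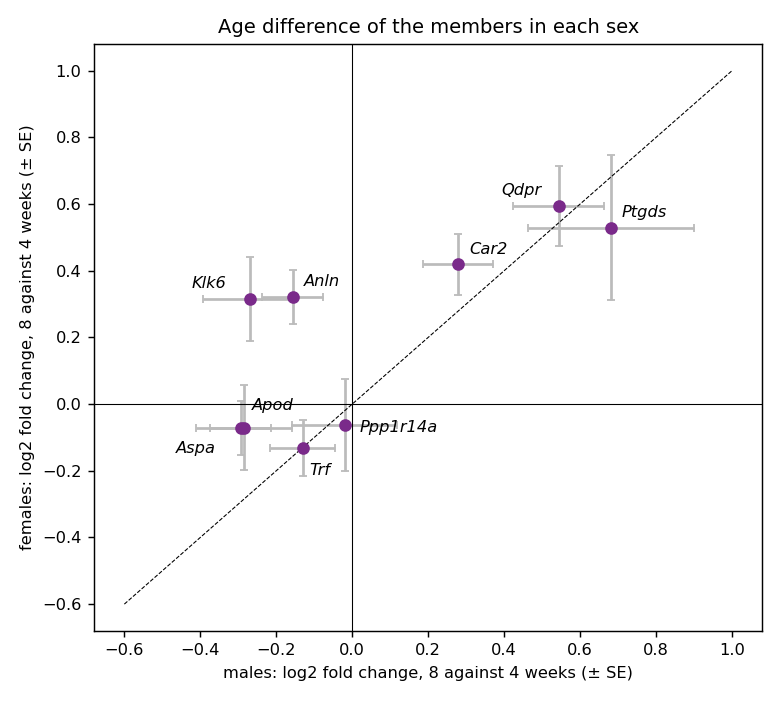
Log2 fold change at 8 against 4 weeks in males (horizontal axis) and in females (vertical axis) with SE for the 9 members, and a dashed line where both are equal. Qdpr, Car2 and Ptgds are positive in both sexes, and Klk6 and Anln are negative in males (-0.27 and -0.16) and positive in females (0.32 and 0.32).

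The fitted age differences of Klk6 and Anln had opposite signs in the 2 sexes. Both genes were picked because they did not fall with other myelin genes, and their values over both sexes were 0.01 and 0.08. With the sexes balanced within each age, such a value lies near the mean of the 2 sexes. Opposite signs therefore carry little information of their own. Klk6 had a log2 fold change of -0.27 (SE 0.12) in males and 0.32 (SE 0.13) in females, and Anln had -0.16 (SE 0.08) and 0.32 (SE 0.08). With the muscle covariate Klk6 was positive in both, at 0.19 in males and 0.74 in females, while Anln was -0.11 and 0.37. Without female 4-week library 2 the female value of Klk6 was 0.10, and without female 4-week library 1 it was 0.57. Without male 4-week library 2 the male value of Anln was -0.078. For Anln the 3 male 8-week libraries lay below both male 4-week libraries, and the 3 female 8-week libraries lay above both female 4-week libraries. The share of all genes split in this way within a sex was not counted, so this only describes these libraries. In the female libraries the lowest Klk6 value at 8 weeks, 173 CPM, fell below the highest at 4 weeks, 176 CPM. The rule did not name the difference of the age changes between the sexes, and this difference was tested for all 9 members. For Klk6 and Anln it comes from the same libraries as the age changes they were picked on. It was 0.59 (SE 0.18, unadjusted p = 0.00592, edgeR adjusted p = 0.970) for Klk6 and 0.48 (SE 0.11, unadjusted p = 0.00123, edgeR adjusted p = 0.970) for Anln. Neither passed. Of all 9 members 0 were called by edgeR, DESeq2 or limma-voom. The 2 at an unadjusted p under 0.05, which 4.82% of all genes reached, were Klk6 and Anln. As these 2 were picked on their age changes, that count is not a result about the members. The edgeR calls were 0.0129% of all genes, namely Star and Cyp11a1, steroid synthesis genes high in the male 4-week libraries.

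Between the sexes over both ages, 0 of 9 members were called by edgeR, DESeq2 or limma-voom, with 2 at an unadjusted p under 0.05. Of all genes edgeR called 0.0901%, and 7.36% had an unadjusted p under 0.05. Klk6 averaged 208 ± 25.3 CPM in males and 173 ± 29.2 CPM in females (SD, n = 5 each), a log2 fold change of -0.26 for females against males (SE 0.11, edgeR adjusted p = 0.655). Trf averaged 2045 ± 164 CPM in males and 2272 ± 181 CPM in females (SD, n = 5 each), a log2 fold change of 0.15 (SE 0.06, edgeR adjusted p = 0.632). Ptgds averaged 852 ± 317 CPM in males and 684 ± 171 CPM in females (SD, n = 5 each), with -0.30 (SE 0.14, edgeR adjusted p = 0.670). Without male 8-week library 1 the Ptgds value was -0.13, and without both male 4-week libraries the Klk6 value was -0.032. Anln averaged 203 ± 14.7 and 207 ± 28.1 CPM (SD, n = 5 each).

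The members differed in how they varied from library to library. Over the 10 libraries, and after subtracting the 4 group means, the log2 levels of the 28 pairs of members without Anln had correlations from 0.41 to 0.96, with 25 over 0.5. The 8 pairs with Anln ran from -0.26 to 0.41, with 0 over 0.5. Within groups Klk6 and Anln had r = -0.12. These are descriptions over libraries that share tissue, depth and scaling. Anln was set apart on these same correlations. The share of all gene pairs with r over 0.5 was not counted, so the counts are not a result about the members.

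Car2 and Qdpr were each other's nearest gene among the 10447 genes with a mean of at least 10 CPM, at r = 0.98 over the 10 libraries and 0.96 within groups. The genes most like Klk6 were Srsf7, a splicing factor (0.95, and 0.94 within groups), Cacybp (0.93 and 0.93) and Angpt1, the angiopoietin ligand of endothelial cells (0.93 and 0.83). Those most like Anln were Inpp5f, a phosphoinositide phosphatase (0.94 and 0.81), Kctd4 (0.91 and 0.93) and the transcription factor Nfib (0.91 and 0.83). No gene was shared by the 2 sets, but 2 sets of 3 from 10447 genes would rarely share one. Each r is the highest found among these genes over 10 libraries, so it is a description only. For the other members the nearest were Gpx8 for Apod (0.97), Adap1 for Trf (0.96), Skp1 for Ppp1r14a (0.97), Septin7 for Aspa (0.98) and Kcnk2 for Ptgds (0.97).

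**Figure D4:**
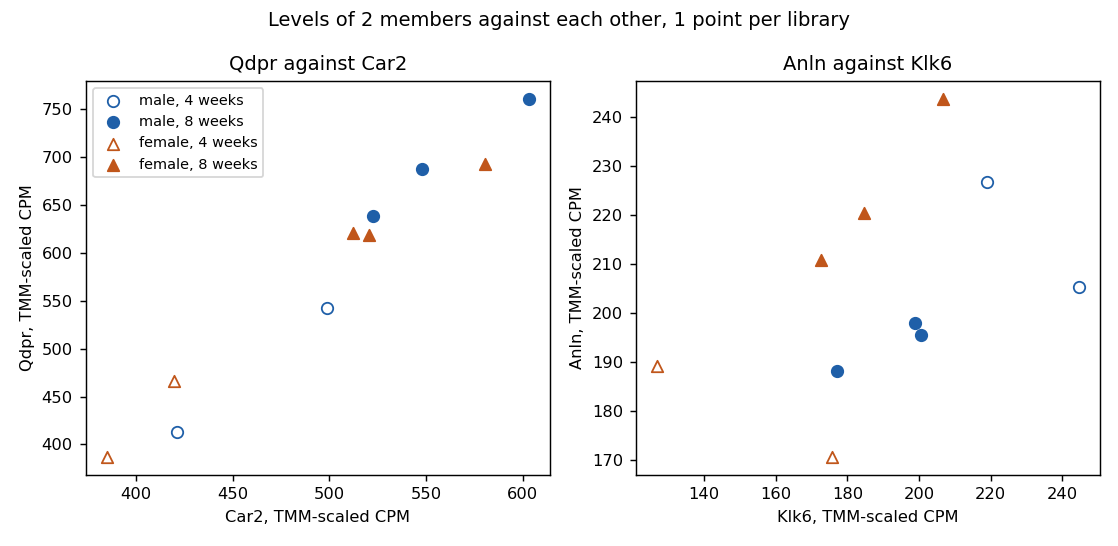
TMM-scaled CPM of Qdpr against Car2 (left) and of Anln against Klk6 (right), 1 point per library, with sexes by shape and ages by fill. Over the 10 libraries r was 0.98 for Car2 and Qdpr and 0.44 for Klk6 and Anln. After subtracting the group means r was 0.96, the highest of the 36 pairs of members, and -0.12.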

How the data were processed

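RNA was extracted with Trizol from spinal cord and sequenced by standard Illumina methods, per the labels' protocols. The deposited values are raw read counts per Entrez gene, 1 file per library, made by the authors with TopHat2 2.1.0 and featureCounts on the mm9 build, per the submitters' processing notes. Neither strand setting nor annotation is given in the sources used here. Of 26301 identifiers, 24191 took a symbol from a RefSeq table (GRCm38.p6), used for names and promoter windows. Lengths come from the GENCODE annotation of GRCm38.

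The test was that of edgeR 4.0.16 under R 4.3.3 on the counts (TMM, filterByExpr with minimum count 10 and minimum total 15, two-sided quasi-likelihood F test, Benjamini-Hochberg at 0.05 over 15540 genes), tested first on simulated data. Age and sex were fitted additively (7 residual degrees of freedom), and the interaction and age within a sex with 4 group means (6). An SE is the log2 fold change over the square root of F. Alternatives were DESeq2 1.42.0, limma-voom (limma 3.58.1), other scaling and filters, a replicate block, a covariate from skeletal muscle markers, and libraries left out. The muscle score used as that covariate was 1.25 to 3.06 at 4 weeks and -2.24 to -0.64 at 8 weeks. It nearly repeats age, so age and the muscle score can hardly be told apart in that fit. With that covariate the median log2 fold change was 0.60 over the 7 members other than Klk6 and Anln and -0.01 over all genes. The median SE over all genes rose from 0.10 to 0.23.

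All 9 members are named. From each pathway list the text names every called gene where up to 3 were called, otherwise the 2 with the lowest p and the one with the largest change, and where none was called the one with the lowest p; from each marker list it names the most abundant gene. Pts, Gch1, Hpgds and Nat8l were named after their values were seen. Some genes that the rule picks are not reported here. Likeness is Pearson's r of log2 CPM with a prior count of 2. The members and lists were chosen with earlier results of these data known.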

Additional observations from a re-analysis of the deposited data

Results flagged for a closer look

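Ptgds in male 8-week library 1 stood apart from the other 5 8-week libraries, at 1392 CPM against 692 to 952 CPM. Its gap to the nearest library exceeded the 95% critical value of Dixon's test. In all 18 groups of values (9 members at 2 ages) were examined, and the test flags about 1 in 20 independent groups by chance. The members share libraries and each group pools both sexes, so that rate may not hold here. Whether chance flagged male 8-week library 1 was not tested. The same library had the highest summed meningeal fibroblast markers at 8 weeks (529 CPM against 272 to 363 CPM), and the part of these in its Ptgds level was not tested.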

How the results depend on the processing

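The calls of Qdpr (log2 fold change 0.51 to 1.1, edgeR, DESeq2 or limma-voom adjusted p at most 0.00487) and Car2 (0.31 to 0.76, at most 0.0235) held under all 20 alternatives for age over both sexes. Ptgds lost its call also with the muscle covariate (1.26, edgeR adjusted p = 0.0813). For age over both sexes, 250 genes were called higher and 778 lower. With the muscle covariate these were 26 and 64, without male 8-week libraries 2 and 3 they were 74 and 400, and without both male 4-week libraries 71 and 322. With 1 library left out, 143 to 550 genes were called higher, namely 146 and 550 on leaving out number 1 or 2 of the male 4-week libraries, 155 for number 2 of the male 8-week libraries, and 143 and 159 for numbers 1 and 3 of the female 8-week libraries, and 2 to 3 members were. The muscle score did not overlap between the ages, so age and that score can hardly be told apart in the fit that holds both. The cause was not tested.

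Other log2 values that changed sign had no call, except Kif23 (0.13) and Slc16a1 (0.032) with the muscle covariate. With that covariate age over both sexes gave 0.38 for Apod, 0.21 for Trf and 0.60 for Ppp1r14a. Within males it gave 0.28, 0.23 and 0.67, and within females 0.44, 0.20 and 0.56, with 0.056 for Aspa. It gave 0.061 for Ppp1r14a by sex and -0.0063 for Qdpr in the interaction. Without male 8-week libraries 2 and 3, Anln by sex was -0.067, Ppp1r14a within males 0.03023, and the interaction -0.022 for Apod and -0.079 for Qdpr. Without both male 4-week libraries, Aspa by sex was 0.0056. The interaction of Trf was 0.00135 with a filter of 1 CPM in 4 libraries and 0.000849 with limma-voom.

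Leaving out 1 library gave Ppp1r14a -0.11 to 0.032 for age over both sexes, -0.18 to 0.17 within males, -0.21 to 0.11 within females, -0.098 to 0.0102 by sex and -0.23 to 0.13 in the interaction. It gave Anln -0.0346 to 0.0892 by sex and Apod -0.17 to 0.0078 within females. In the interaction it gave Trf -0.0707 to 0.0516, Qdpr -0.16 to 0.23 and Ptgds -0.32 to 0.16.

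Replicate numbers were not used as pairs in the main fit. Correlations of deviations from the group means were -0.21 to 0.24 over 13 same-numbered pairs, with 5 over 0.1. Different-numbered pairs ran from -0.25 to 0.25. In groups of 2 libraries the deviations mirror each other, so these values are not independent and cannot settle whether libraries are paired. With the replicate block 204 genes were higher and 604 lower, the members' calls stood (Ptgds 0.71, edgeR adjusted p = 0.00607), and Ppp1r14a was 0.049 over both sexes, 0.069 within males and 0.029 within females, and Trf 0.00133 in the interaction.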
